A study of Homo sapiens with 6 samples.

Results

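The genes described here are 10 genes of the circadian clock, 9 of them repressors of the clock and the other the output gene DBP. They are BHLHE40, BHLHE41, PER1, PER2, PER3, CRY1, CRY2, NR1D1, NR1D2 and DBP, and they were found by symbol among the 19977 genes counted. The group was chosen by the level of BHLHE41 in these same libraries, which was about 2 times higher in the supplemented medium, so that difference is described without a test. Bulk polyadenylated RNA of NCRM-1, a human induced pluripotent stem cell (hiPSC) line described as wild type, was sequenced from 6 libraries. The cells grew for 4 days as suspended aggregates in vertical wheel bioreactors, after seeding as single cells with a ROCK inhibitor, and 50% of the medium was exchanged on day 2. For 3 libraries the medium was E8 with 10 mg/ml polyethylene glycol and heparin sodium salt at 0.1 µg/ml (PEG and HS), and for the other 3 it was E8 alone (E8 control). The protocol text of the labels describes the additives for all 6 libraries, and each library was assigned by its own treatment label. The labels read as a single bioreactor for each medium, so a difference between media and one between vessels cannot be told apart. Each p-value measures the spread between samples that may come from one vessel.

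In the mammalian clock, the activators CLOCK and BMAL1 bind E-box sequences and switch on the PER and CRY genes, whose proteins return to the nucleus and inhibit that same pair. NR1D1 and NR1D2 (REV-ERB alpha and beta) are nuclear receptors that repress BMAL1, and BHLHE40 and BHLHE41 (DEC1 and DEC2) are basic helix-loop-helix repressors that occupy the same E-boxes as CLOCK and BMAL1. DBP is an activator that carries the rhythm to genes with a D-box. Pluripotent stem cells are known to express most of these genes without a running circadian oscillation, which appears as the cells differentiate.

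E-boxes are the sequence that links BHLHE40 and BHLHE41 to the other genes of the group, and the sequences shown are the stretches that hold them. The 250 bases before each RefSeq start site were taken from the promoters of GRCh38.p14, which hold 13 windows for the 10 genes. Both strands were searched. A RefSeq start can lie inside the gene span given below. The windows of PER1 and PER2 and the second windows of NR1D2 and CRY2 lie wholly inside those spans. Those of PER1, PER2 and CRY2 hold exon bases of the same gene. The E-box CACGTG lay in a window of BHLHE40, BHLHE41, PER1 and NR1D2, that is 4 of the 10 genes, and in 6.34% of the 35116 promoter windows of the table. For this and the other motifs, a gene is counted if any of its windows matches, whereas the share is per window. The count and the share are therefore not directly comparable. In BHLHE40 the first base of the E-box lay 245 bases before the start, in BHLHE41 48, in PER1 173, and in the second start of NR1D2 155 and 105. The windows of BHLHE40 (chr3:4979187-4979436, plus strand), BHLHE41 (chr12:26125038-26125287, minus strand) and the second start of NR1D2 (chr3:23945871-23946120, plus strand) are given whole, and PER1 as 30 bases (chr17:8152560-8152589, minus strand), each 5′ to 3′ with the E-box in capitals.
BHLHE40: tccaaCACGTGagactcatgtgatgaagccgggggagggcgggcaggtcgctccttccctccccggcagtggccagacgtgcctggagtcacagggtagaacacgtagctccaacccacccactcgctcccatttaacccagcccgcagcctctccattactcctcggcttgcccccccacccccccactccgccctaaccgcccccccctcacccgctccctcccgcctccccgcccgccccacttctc
BHLHE41: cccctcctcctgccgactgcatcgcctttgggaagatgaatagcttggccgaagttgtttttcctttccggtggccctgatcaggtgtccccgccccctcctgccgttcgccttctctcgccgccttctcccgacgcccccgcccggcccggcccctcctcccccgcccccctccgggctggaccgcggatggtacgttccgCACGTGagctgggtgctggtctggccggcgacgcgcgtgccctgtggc
NR1D2: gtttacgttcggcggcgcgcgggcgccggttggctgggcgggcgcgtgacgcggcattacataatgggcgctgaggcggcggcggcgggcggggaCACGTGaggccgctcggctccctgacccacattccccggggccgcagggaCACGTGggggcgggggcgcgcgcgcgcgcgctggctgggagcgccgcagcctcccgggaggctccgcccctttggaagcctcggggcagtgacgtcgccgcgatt
PER1: agcacccaggtcCACGTGcgcccgtgtgtg

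The related letters CACGTT, called E'-box, lay in a window of PER2, CRY1, CRY2 and NR1D1, against 4.55% of all windows, and they are shown because they stand where these genes have no CACGTG. The D-box TTATGTAA, the site of DBP, lay in a window of PER3 and of NR1D2, against 0.834% of all windows. The windows of 30 bases carry the match in capitals, for PER2 chr2:238288790-238288819 (minus strand), CRY1 chr12:107093621-107093650 (minus strand), the second start of CRY2 chr11:45847275-45847304 (plus strand), NR1D1 chr17:40100740-40100769 (minus strand) and PER3 chr1:7784103-7784132 (plus strand).
PER2: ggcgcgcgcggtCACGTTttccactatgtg
CRY1: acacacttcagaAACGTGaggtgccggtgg
CRY2: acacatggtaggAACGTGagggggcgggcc
NR1D1: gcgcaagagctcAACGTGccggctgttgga
PER3: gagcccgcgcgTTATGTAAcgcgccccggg
The core site AGGTCA of the REV-ERB and ROR receptors lay in a window of PER1 and CRY2 (12.1% of all windows). These matches are letters in a window of 250 bases and do not show binding.

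Reads counted on genes ranged from 26991279 to 36185138 per library and overlapped between media. All 10 genes had at least 54 counts in each library and passed the filter of 10 counts in total. Levels are given as CPM, counts per 1000000 of the TMM-scaled library, a scale that is not corrected for gene length. The 7 markers of pluripotent stem cells summed to 7464 to 7717 CPM with PEG and HS and 7308 to 7451 in E8 alone, with 3 called higher and 2 lower. Some markers of other cells were lower with PEG and HS. The 4 neuroectoderm markers, of which NES held most, summed to 553 to 589 against 667 to 691 CPM. The 4 trophectoderm markers summed to 0.414 to 1.07 against 6.07 to 6.56 CPM. Most of that sum was 1 gene, TFAP2A (means 0.604 and 6.0 CPM), and GATA3 was not called (adjusted p = 0.546 with edgeR). The 4 fibroblast markers, of which COL1A1 held most, summed to 67.5 to 75.6 against 128.5 to 149 CPM. All 4 neuroectoderm and all 4 fibroblast markers were called lower. So were 2 of the 3 trophectoderm markers tested, TFAP2A and HAND1, the latter with 16 counts over all libraries. Among all 16505 genes tested, 25.3% were called, 12.2% higher and 13.1% lower. Mesoderm markers summed to 2.43 to 2.73 against 2.0 to 2.66 CPM and endoderm markers to 2.01 to 2.25 against 2.36 to 3.04 CPM, and 0 of 4 and 0 of 2 tested were called with edgeR (1 and 1 at an unadjusted p under 0.05). The defining genes SOX17 and CDX2 had 2 and 3 counts over all libraries. Whether such cells were present, and their part in the results that follow, was not tested. In bulk RNA, a lower number of cells of a type and less RNA per cell cannot be told apart. Nor can either be told from expression of these markers in the stem cells themselves.

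The 2 DEC genes were both higher in PEG and HS, and they showed the 2 largest differences of the group. BHLHE41 (ENSG00000123095, chromosome 12, 26120030 to 26125037 of GRCh38, minus strand) was at 4.57, 4.46 and 3.81 CPM with PEG and HS against 2.0, 2.12 and 2.11 CPM in E8 alone. The lowest PEG and HS library lay well above the highest E8 control library. The means were 4.28 ± 0.408 and 2.08 ± 0.0660 CPM (SD, n = 3), a 2.06-fold difference (log2 fold change 1.04, SE 0.13), for which no test is given because the gene chose the group. These values rest on 126 to 154 counts per library with PEG and HS and 54 to 76 in E8 alone, the fewest of the 10 genes. With each library left out in turn the log2 fold change lay between 0.99 and 1.12.

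BHLHE40 (ENSG00000134107, chromosome 3, 4979437 to 4985323, plus strand), the paralog, was at 6.67, 6.97 and 6.88 CPM with PEG and HS against 3.97, 5.02 and 4.63 CPM in E8 alone. The PEG and HS libraries lay close together and all above E8 control, where replicate 1 was lowest. BHLHE40 rose 1.51-fold (log2 fold change 0.585, SE 0.10, adjusted p = 0.000509). All adjusted p-values are from the quasi-likelihood test of edgeR, with Benjamini-Hochberg adjustment over every gene tested, except where DESeq2 is named. The call held with each library left out (adjusted p at most 0.00335). An antisense gene, BHLHE40-AS1, shares 12.8% of the exon bases of BHLHE40, and SSPN on the other strand shares 4.20% of those of BHLHE41 and was at 0.988 and 0.922 CPM in the 2 media. The library kit keeps the strand of the RNA, but whether the counting used strand is not given in the sources used here.

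**Figure D1:**
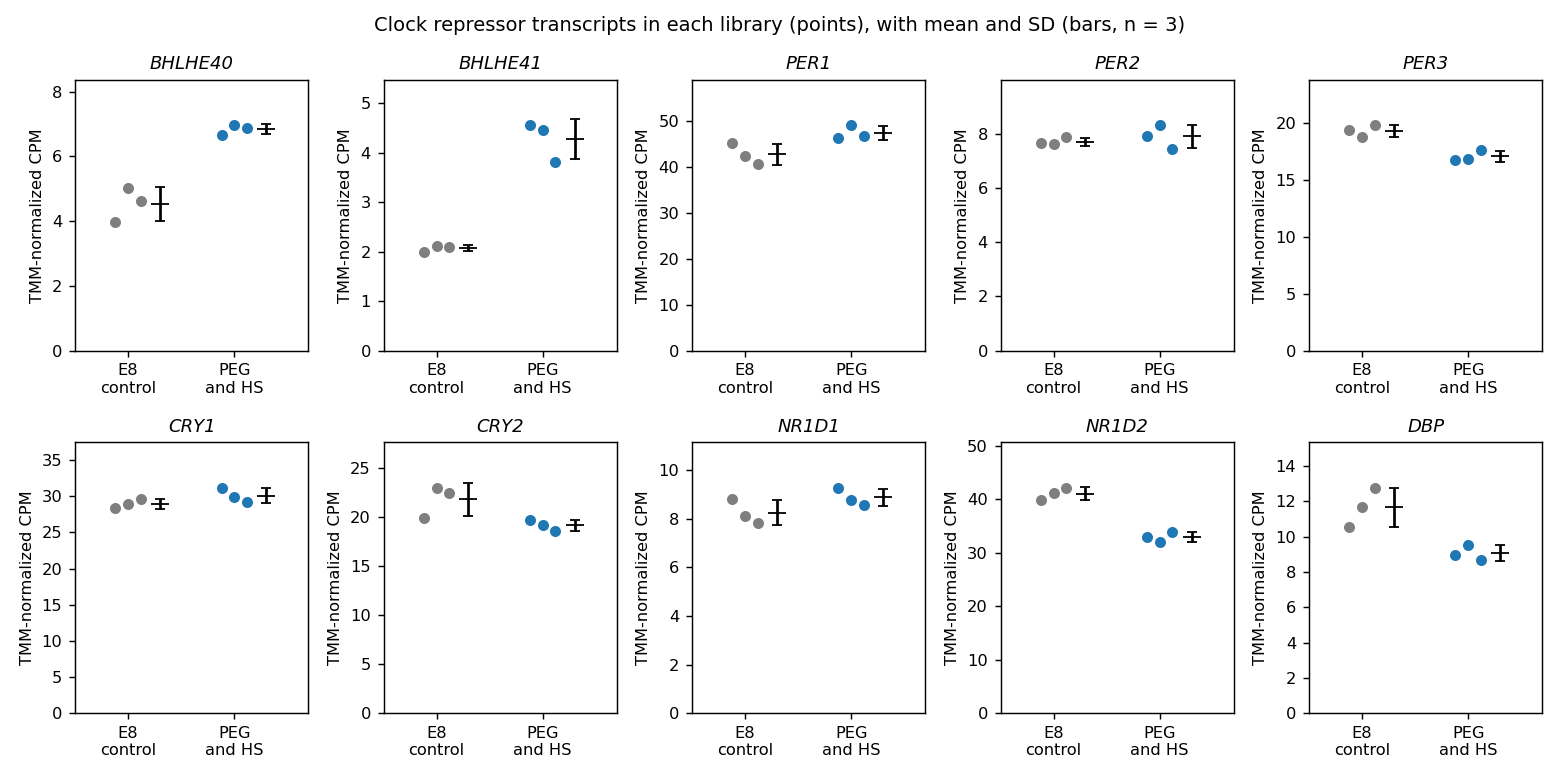
Level of each of the 10 genes in TMM-normalized CPM (vertical axes from 0), with 1 point per library for E8 control (grey) and PEG and HS (blue) and the mean and SD beside them (n = 3). BHLHE41 has the widest gap between the media for its level (4.28 against 2.08 CPM), whereas the points of PER2, CRY1 and NR1D1 overlap.

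Among the 9 other genes, 6 were called at an adjusted p under 0.05 with edgeR, 2 higher (BHLHE40 and PER1) and 4 lower (PER3, CRY2, NR1D2 and DBP), and the same 6 had no overlap between the media. Over all 16505 genes tested, 25.3% were called, 12.2% higher and 13.1% lower, and 39.3% had no overlap. The group was chosen with results of this contrast known, so nothing is read from these counts. The median log2 fold change of the 9 genes was 0.032, beside 0.0031 over all genes tested. DESeq2, the tool the methods name, called 4 of the 9, and leaving out PEG and HS replicate 2 or E8 control replicate 3 each left 3. Tested against a 1.5-fold change with edgeR, 0 of the 9 were called (0 at an unadjusted p under 0.05), and 1.6% of all genes.

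**Figure D2:**
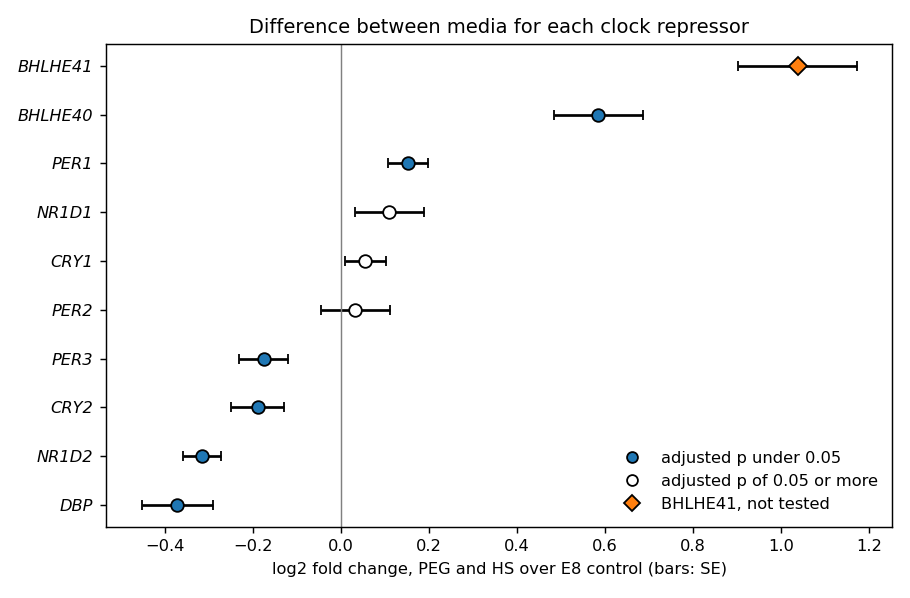
Log2 fold change of PEG and HS over E8 control for each gene (horizontal axis), with bars for the SE of edgeR's fit. Filled circles mark an adjusted p under 0.05, open circles the others and the diamond BHLHE41, which was not tested. Values run from -0.37 for DBP to 1.04 for BHLHE41, and those of the PER, CRY and NR1D genes lie between -0.32 and 0.15.

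The 3 PER genes, which encode the scaffold of the repressor complex, differed little between the media, with PER1 higher, PER3 lower and PER2 not called. PER1 (ENSG00000179094, chromosome 17, 8140472 to 8156506, minus strand), the member known to be induced fastest by outside signals, was at 46.2, 49.0 and 46.7 CPM with PEG and HS against 45.2, 42.3 and 40.5 CPM in E8 alone. The lowest PEG and HS library and the highest E8 control library were about 1 CPM apart. PER1 rose (1.11-fold, log2 fold change 0.15, SE 0.045, adjusted p = 0.0224), but the call was lost without PEG and HS replicate 2 (adjusted p = 0.0898), E8 control replicate 2 (0.0627) or E8 control replicate 3 (0.102).

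PER2 (ENSG00000132326, chromosome 2, 238244044 to 238290102, minus strand), which with PER1 is the core PER of the clock, was at 7.92, 8.32 and 7.45 CPM with PEG and HS against 7.64, 7.60 and 7.87 CPM in E8 alone. The E8 control libraries lay inside the range of PEG and HS. No difference was detected (log2 fold change 0.032, 95% interval -0.14 to 0.20, adjusted p = 0.814), and without PEG and HS replicate 2 the value was -0.0051. PER3 (ENSG00000049246, chromosome 1, 7784291 to 7845177, plus strand), the least essential of the 3 for rhythm, was at 16.7, 16.8 and 17.6 CPM with PEG and HS against 19.3, 18.7 and 19.8 CPM in E8 alone, without overlap. PER3 fell (log2 fold change -0.18, SE 0.055, adjusted p = 0.0295). Its call was lost with DESeq2 (adjusted p = 0.0973) and without PEG and HS replicate 1 (0.0986), PEG and HS replicate 2 (0.0760), E8 control replicate 1 (0.0652) or E8 control replicate 3 (0.101). Exons of UTS2 on the other strand cover 10.7% of the exon bases of PER3, and UTS2 was at 0.682 and 0.480 CPM.

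The cryptochromes are the partners of PER that inhibit CLOCK and BMAL1 directly. CRY1 (ENSG00000008405, chromosome 12, 106991364 to 107093549, minus strand) was at 31.2, 29.9 and 29.2 CPM with PEG and HS against 28.4, 28.9 and 29.6 CPM in E8 alone, with overlap (log2 fold change 0.054, 95% interval -0.045 to 0.15, adjusted p = 0.443). CRY2 (ENSG00000121671, chromosome 11, 45847118 to 45883248, plus strand) was at 19.7, 19.2 and 18.6 CPM with PEG and HS against 19.9, 23.0 and 22.5 CPM in E8 alone. E8 control replicate 1 lay within 0.3 CPM of the highest PEG and HS library. CRY2 fell (log2 fold change -0.19, SE 0.061, adjusted p = 0.0327), a call that was lost with DESeq2 (adjusted p = 0.0694) and in 5 of the 6 fits with a library left out, namely without PEG and HS replicate 1 (0.0544), replicate 2 (0.0704) or replicate 3 (0.100) and without E8 control replicate 2 (0.128) or replicate 3 (0.110).

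The REV-ERB receptors NR1D1 and NR1D2 make up the second loop of the clock and compete with the ROR activators for the same sites. NR1D2 (ENSG00000174738, chromosome 3, 23945286 to 23980617, plus strand) was at 33.0, 32.0 and 33.9 CPM with PEG and HS against 39.8, 41.2 and 42.2 CPM in E8 alone. The gap between the media was wider than the spread within either. NR1D2 fell (0.803-fold, log2 fold change -0.32, SE 0.043, adjusted p = 5.6e-05), and the call held with each library left out (adjusted p at most 0.000667). NR1D1 (ENSG00000126368, chromosome 17, 40092793 to 40100589, minus strand) was at 9.28, 8.78 and 8.57 CPM with PEG and HS against 8.82, 8.13 and 7.82 CPM in E8 alone. These libraries overlapped (log2 fold change 0.11, 95% interval -0.057 to 0.28, adjusted p = 0.344). NR1D1 lies tail to tail with THRA on the other strand, whose exons cover 18.0% of its exon bases, and THRA was at 21.1 and 22.9 CPM (log2 fold change -0.11, adjusted p = 0.115).

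DBP (ENSG00000105516, chromosome 19, 48630030 to 48637379, minus strand), the direct output of CLOCK and BMAL1, was at 8.96, 9.55 and 8.66 CPM with PEG and HS against 10.5, 11.7 and 12.8 CPM in E8 alone. All PEG and HS libraries were lower, and E8 control was more spread. DBP fell (0.777-fold, log2 fold change -0.37, SE 0.081, adjusted p = 0.00305), and with each library left out its log2 fold change lay between -0.44 and -0.30 (adjusted p at most 0.0228). Exons of SPHK2 on the other strand cover 10.2% of the exon bases of DBP. SPHK2, a sphingosine kinase, was at 51.9 ± 0.871 CPM with PEG and HS and 64.4 ± 0.785 CPM in E8 alone (log2 fold change -0.31, adjusted p = 6.26e-06). Its part in the value of DBP was not tested.

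Since related genes differed in the direction or size of their change, the counts of related genes were divided within each library, a ratio that needs no scaling between libraries. CRY1 over CRY2 was 1.58, 1.56 and 1.57 with PEG and HS and 1.42, 1.25 and 1.32 in E8 alone. NR1D1 over NR1D2 was 0.281, 0.274 and 0.253 against 0.222, 0.197 and 0.185. PER1 over PER3 was 2.76, 2.92 and 2.65 against 2.34, 2.26 and 2.04. For each of these 3 ratios the PEG and HS libraries were all higher, without overlap. The divisors CRY2, NR1D2 and PER3 were each lower without overlap on their own. The ratios restate those differences and are no separate support for them. BHLHE40 over BHLHE41 was 1.46, 1.56 and 1.81 with PEG and HS and 1.98, 2.36 and 2.20 in E8 alone. The lower ratio in PEG and HS follows from the larger rise of BHLHE41, the gene that chose the group. PER1 over PER2 overlapped between the media (5.83 to 6.27 against 5.14 to 5.91). DBP over PER1 was 0.185 to 0.195 with PEG and HS and 0.233 to 0.316 in E8 alone. For 3 libraries against 3, an exact two-sided permutation test cannot give a p below 0.1, and the ratios are therefore given as values.

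**Figure D3:**
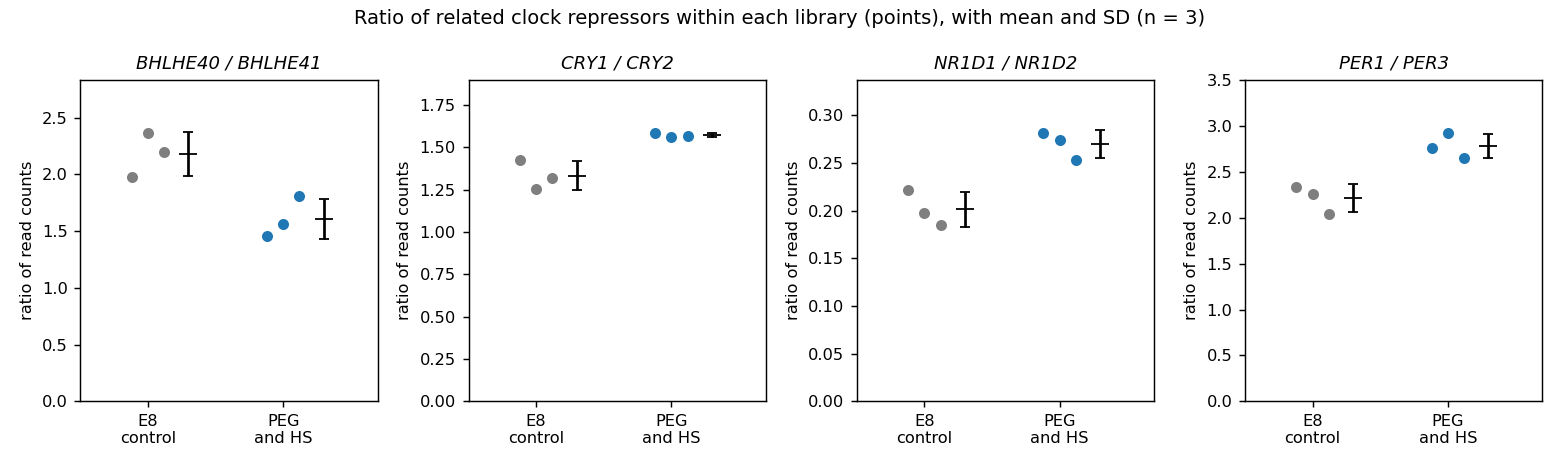
Ratio of read counts of related genes within each library (vertical axes from 0), with 1 point per library for E8 control (grey) and PEG and HS (blue) and the mean and SD beside them (n = 3). The ratio BHLHE40 / BHLHE41 is lower in PEG and HS (mean 1.61 against 2.18), and CRY1 / CRY2, NR1D1 / NR1D2 and PER1 / PER3 are higher.

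To compare levels between the genes, CPM was divided by the length of the union of annotated exons (CPM per kb). In E8 control the order was NR1D2 (7.09 ± 0.206 CPM per kb, SD, n = 3), PER1 (6.09 ± 0.337), CRY1 (6.06 ± 0.136), CRY2 (3.52 ± 0.265), NR1D1 (3.14 ± 0.196), PER3 (2.37 ± 0.0661), DBP (1.80 ± 0.173), BHLHE40 (1.29 ± 0.151), PER2 (1.09 ± 0.0206) and BHLHE41 (0.539 ± 0.0171). Among neighbours in that order, the libraries overlapped for PER1 and CRY1 and for CRY2 and NR1D1. In PEG and HS, PER1 led (6.76 ± 0.217 CPM per kb), followed by CRY1 (6.29 ± 0.212) and NR1D2 (5.69 ± 0.164), and BHLHE40 (1.95 ± 0.0438) stood above DBP (1.40 ± 0.0705). BHLHE41 was last in both media, but in PEG and HS (1.11 ± 0.106 CPM per kb) its libraries overlapped those of PER2 (1.11 ± 0.0615). With the longest transcript as the length, PER1 led in E8 control as well (9.12 CPM per kb), ahead of NR1D2 (7.85), since PER1 has many exon bases outside its longest transcript. For DBP the union of exons (6485 bases) and the longest transcript (5756 bases) both cover most of the gene span. A shorter transcript as the length would raise the level of DBP, so its place in the order is uncertain.

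**Figure D4:**
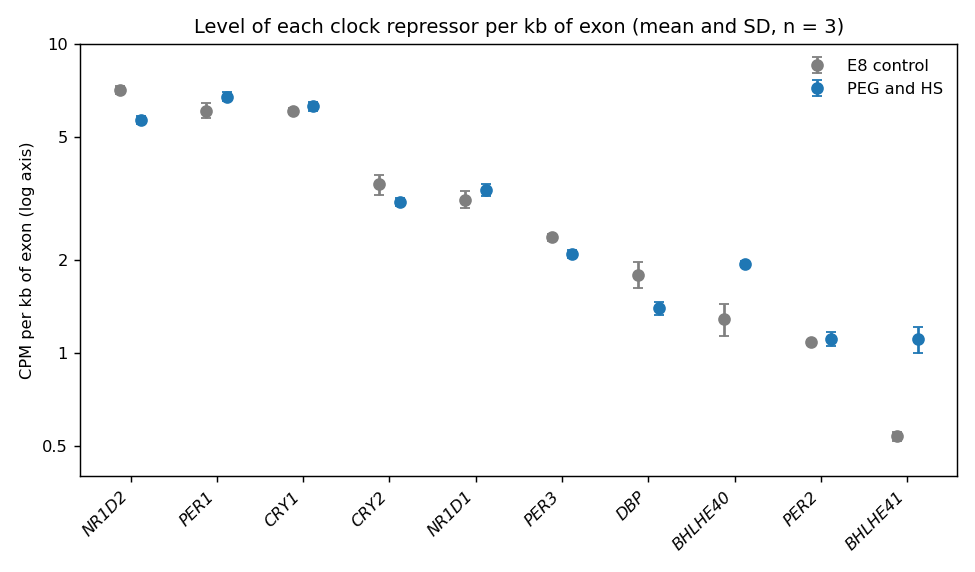
Mean level per kb of exon (logarithmic vertical axis) with SD (n = 3) for E8 control (grey) and PEG and HS (blue), genes ordered by E8 control. BHLHE41 lies lowest in E8 control (0.539 CPM per kb) and reaches the level of PER2 in PEG and HS (1.11 CPM per kb).

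Of the 7 clock activators listed, 2 were called, against 25.3% of all genes. RORA, a nuclear receptor that activates BMAL1, was at 12.7 ± 0.585 CPM with PEG and HS and 17.8 ± 1.65 CPM in E8 alone, and fell (log2 fold change -0.49, SE 0.073, adjusted p = 0.000125). CLOCK rose from 38.1 ± 0.770 to 41.9 ± 0.288 CPM (log2 fold change 0.13 with SE 0.039, adjusted p = 0.0193). That call was lost with DESeq2 and without PEG and HS replicate 1, PEG and HS replicate 2 or E8 control replicate 1 (adjusted p at most 0.0718). BMAL1, the partner of CLOCK, was at 8.70 ± 0.251 CPM with PEG and HS and 9.51 ± 0.232 CPM in E8 alone without overlap, but did not pass the test (adjusted p = 0.200). The other 4 were not called, with adjusted p-values from 0.497 to 0.925. The median log2 fold change of the 7 genes was -0.030.

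Of the 23 genes listed as modifiers of the clock proteins, 1 had no row (FBXL21P), PASD1 was under the filter with 5 counts, and 7 of the 21 tested were called, 1 higher and 6 lower (median log2 fold change -0.036), where 25.3% of all genes were called, 12.2% higher and 13.1% lower. SIRT1, a deacetylase that acts on PER2 and BMAL1, fell from 119 ± 4.97 to 88.7 ± 1.69 CPM (log2 fold change -0.42 with SE 0.035, adjusted p = 3.07e-07). FBXW11, a ubiquitin ligase subunit for PER proteins, fell from 99.2 ± 3.88 to 76.5 ± 1.51 CPM (log2 fold change -0.38 with SE 0.035, adjusted p = 1.07e-06). CIART, a repressor of CLOCK and BMAL1 also known as CHRONO, fell from 6.42 ± 0.563 to 4.89 ± 0.705 CPM (log2 fold change -0.40, adjusted p = 0.0196), a call that was lost without PEG and HS replicate 1, E8 control replicate 1 or E8 control replicate 3 (adjusted p up to 0.106). A smaller decrease was called in the PER kinase CSNK1E (log2 fold change -0.14, adjusted p = 0.00337). USP7, a deubiquitinase that stabilizes CRY1, rose from 265 ± 2.55 to 293 ± 13.0 CPM (log2 fold change 0.14, adjusted p = 0.00384).

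Of the 10 clock output genes listed, 3 were called, 1 higher and 2 lower (median log2 fold change 0.012), a share near the 25.3% of all genes. TEF, the closest relative of DBP and an activator of the same D-box, fell from 11.3 ± 1.27 to 8.09 ± 0.521 CPM (log2 fold change -0.49 with SE 0.088, adjusted p = 0.000728). KLF10 rose from 21.9 ± 0.803 to 25.6 ± 1.19 CPM (log2 fold change 0.22 with SE 0.054, adjusted p = 0.00638). WEE1, the mitotic kinase, and NAMPT, of the NAD salvage pathway, had log2 fold changes of 0.030 and -0.0067 and were not called, and NFIL3, the repressor that competes with DBP at the D-box, had -0.037 (adjusted p = 0.745).

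BHLHE40 and BHLHE41 are also known as targets of hypoxia-inducible factors, and 18 other such targets were set beside them. Of these, 10 were called, 7 higher and 3 lower, against 12.2% higher and 13.1% lower over all genes, with a median log2 fold change of 0.11. LDHA (log2 fold change 0.23, adjusted p = 9.37e-06), P4HA1 (0.26, adjusted p = 0.00142), PDK1 (0.20, adjusted p = 0.00302) and VEGFA (0.19, adjusted p = 0.00502) rose. EGLN3, an oxygen sensor, fell from 24.7 ± 0.878 to 16.5 ± 0.566 CPM (log2 fold change -0.58 with SE 0.055, adjusted p = 1.08e-06). CA12 fell as well (log2 fold change -0.58, adjusted p = 0.0137), a call lost without PEG and HS replicate 3 or E8 control replicate 2 (adjusted p up to 0.0852). CA9 had 8 to 13 counts per library and was not called. A part of hypoxia in the levels of BHLHE40 and BHLHE41 was not tested.

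PER1 belongs to the genes that serum, cyclic AMP and glucocorticoids induce within minutes, and of 9 other genes of that kind 2 were called, a share near the 25.3% of all genes. EGR1 fell from 32.1 ± 1.63 to 8.55 ± 0.170 CPM (log2 fold change -1.91 with SE 0.060, adjusted p = 4.86e-12). FOS rose from 5.0 ± 0.415 to 7.23 ± 0.458 CPM (log2 fold change 0.53 with SE 0.096, adjusted p = 0.000726). NR4A1, CREM, DUSP1, KLF9, FKBP5 and TSC22D3 were not called, and SIK1, which had 0 to 30 counts per library, has a near-identical annotated copy and is uncertain. With edgeR, 6 of the 9 genes had an unadjusted p under 0.05, beside 5945 of all 16505 genes. No overlap between the media was seen for 6 of the 9, 2 higher and 4 lower, beside 39.3% of all genes. The median log2 fold change of the 9 genes was -0.14.

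The HES and HEY genes encode the other repressors with the basic helix-loop-helix and Orange domains of the DEC proteins. Of 11 listed, HELT had no count, 10 were tested and 5 were called, 2 higher and 3 lower, beside 25.3% of all genes. HES4 fell from 3.76 ± 0.466 to 0.936 ± 0.211 CPM (log2 fold change -1.99 with SE 0.19, adjusted p = 1.27e-06) and HES3 from 41.0 ± 1.85 to 25.0 ± 0.863 CPM (log2 fold change -0.72 with SE 0.049, adjusted p = 2.73e-08). HES5 fell from 10 to 14 counts per library to 3 to 6 (adjusted p = 0.0331), a call that was lost with the replicate number as a block (adjusted p = 0.0533) and without PEG and HS replicate 1, PEG and HS replicate 2, E8 control replicate 1 or E8 control replicate 2 (adjusted p up to 0.117). DESeq2 gave no adjusted p for HES5. HES6 rose from 24.4 ± 1.17 to 30.5 ± 2.06 CPM (log2 fold change 0.33, adjusted p = 0.000615), and HEY2 from 24.6 ± 0.498 to 28.0 ± 0.913 CPM (log2 fold change 0.19, adjusted p = 0.00914). The median log2 fold change of the 10 tested genes was -0.11.

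**Figure D5:**
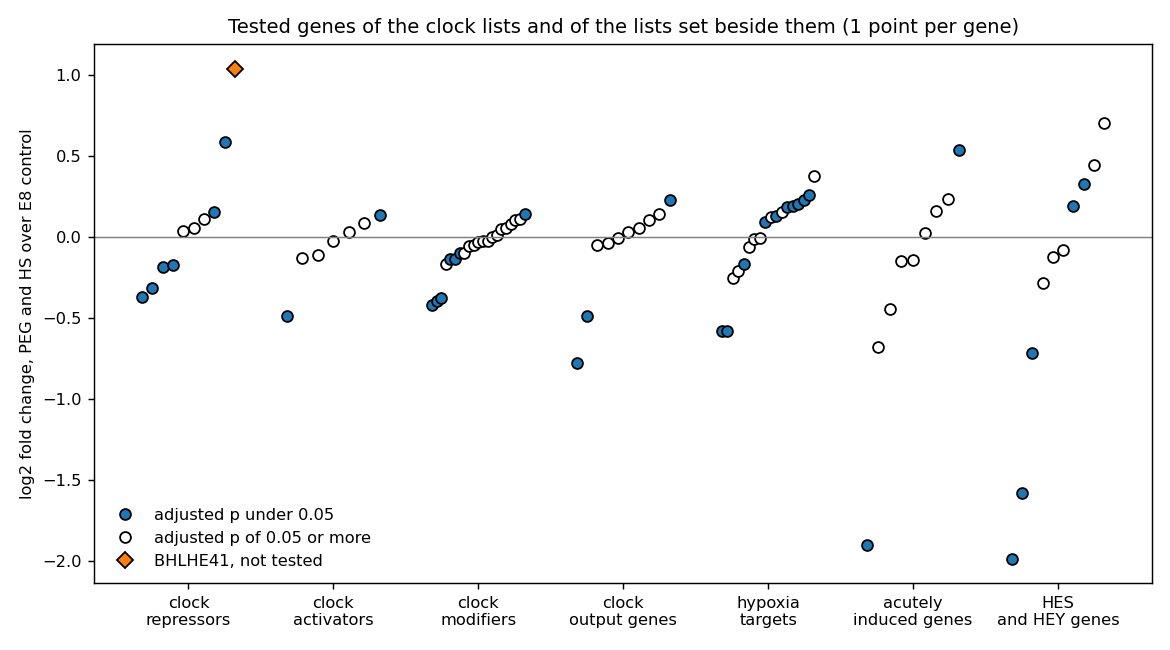
Log2 fold change of PEG and HS over E8 control (vertical axis) for each tested gene of the 7 lists, 1 point per gene ordered within its list. Filled circles mark an adjusted p under 0.05, and the diamond is BHLHE41, not tested. Most clock activators, modifiers and output genes lie near 0, and the lowest points are EGR1 (-1.91) and HES4 (-1.99).

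Genes whose profile was most like that of BHLHE41 were ranked by the root mean square difference of centred log2 CPM over the 6 libraries, among 13547 genes with a mean of at least 1 CPM. The 5 nearest were SHC3 (0.087), GRAMD2A (0.098), GBX2 (0.11), TMPRSS11E (0.11) and VSNL1 (0.11). SHC3, an adaptor of receptor tyrosine kinases, was at 35.6 ± 1.51 CPM with PEG and HS and 18.4 ± 0.860 CPM in E8 alone, and GBX2, a homeobox transcription factor, at 17.3 ± 1.0 and 9.57 ± 0.446 CPM. VSNL1, a neuronal calcium sensor, was at 48.3 ± 0.758 and 26.1 ± 0.582 CPM. BHLHE40 lay at 0.24, the nearest of the other 9 clock genes, and the rest lay between 0.45 (PER1) and 0.69 (DBP). The likeness rests mainly on the difference between the media that chose BHLHE41 and is a description.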

How the data were processed

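Reads were trimmed (Trim Galore 0.6.7) and mapped to GRCh38 (STAR 2.6.1) by the authors, who deposited raw counts of reads per gene, without normalization, 1 library per file. The counting tool, its use of strand and the annotation release are not given in the sources used here. Of 19977 identifiers, 19916 matched GENCODE 44, which gave symbols, coordinates and exon lengths. No column of another series was used. Here, genes with at least 10 counts over the 6 libraries (16505) were scaled with TMM and tested with edgeR's glmQLFit and glmQLFTest (edgeR 4.0.16, R 4.3.3). The medium was the sole term, p-values were adjusted by Benjamini-Hochberg over those genes, and genes were called at an adjusted p under 0.05. SE is the size of the log2 fold change divided by the root of the F statistic. The 95% intervals use the total degrees of freedom of that test, residual plus prior. The common biological coefficient of variation was 3.12%. No 2 replicates of a medium were as close as repeat counts of 1 library would be (chi-square over degrees of freedom 2.61 to 3.60). Depth was 26991279 to 36185138 counts per library.

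Named genes were all 10 members, the called genes without overlap in each list (at most 6, by size) and the 5 profiles nearest to BHLHE41. Genes that were not called were named after their values were seen. The members and lists were chosen with earlier results of these data known. Alternatives were DESeq2 1.42.0, limma-voom (limma 3.58.1), other scalings and filters, a replicate block, a test against a 1.5-fold change, each library left out and another gene length. On counts simulated for this comparison over 16369 genes, edgeR recovered 86% of 100 genes changed 1.5-fold and 96% of 100 changed 2-fold. Of its 195 calls there, 6.67% were false. The 200 changed genes all had a mean of at least 1 CPM, and they are fewer than the 4173 called in the data. With no gene changed it called 2 of 16385. A few listed genes are counted in their lists but not reported here by name.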

Additional observations from a re-analysis of the deposited data

How the results depend on the processing

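The log2 fold change of BHLHE41 stayed between 0.99 and 1.12 under all 16 alternatives to the fit. Among these, the test against a 1.5-fold change uses the same fit and could not move the value. BHLHE40, DBP and NR1D2 kept their direction and their call under all but the test against a 1.5-fold change. That edgeR test, which asks for a larger difference, left 264 of the 4173 genes called, 0 of the 6 called among the 9 clock genes, 0 of 2 activators, 0 of 7 modifiers, 0 of 3 output genes, 0 of 10 hypoxia targets, 1 of 2 acutely induced genes and 1 of 5 HES and HEY genes. At an unadjusted p under 0.05 it gave 1 output gene and 0 in the other lists with no call. DESeq2 called 1 activator in place of 2, 4 of the 9 clock genes in place of 6 and 3398 genes in place of 4173, whereas limma-voom called 2, 6 and 4172. With each library left out in turn, 3 to 5 of the 9 clock genes, 1 to 2 activators and 3114 to 3674 genes in all were called. The log2 fold change of PER2 then ran from -0.0051 (without PEG and HS replicate 2) to 0.073, and PER2 was not called in any fit. The cause of these losses was not tested. Each such fit has fewer libraries as well as a different set of them. The 3 other scalings turned no direction among the 10 genes, and HES5 did not pass the 2 stricter filters on low counts. The labels number replicates 1 to 3 in both media, and the deviations of same-numbered libraries correlated at -0.015, 0.028 and 0.060. Those of different-numbered libraries ran from -0.094 to 0.063. No pairing by number was seen, but 3 libraries per medium cannot show that there was none. With the replicate number as a block, edgeR called 4444 genes and 6 of the 9 clock genes. Depth limits BHLHE41 and BHLHE40 most, with 54 to 233 counts per library.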
